A study of Mus musculus with 6 samples.

Results

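The genes described here are 10 members of 3 small protein families: the galectins Lgals1 and Lgals3, the annexins Anxa1, Anxa2 and Anxa6, and the S100 genes S100a4, S100a6, S100a10, S100a11 and S100a13. They were taken by symbol from a table of 24453 gene symbols, with the transcript of the highest mean level where a symbol had several, and all 10 were among the 13621 genes tested. RNA came from regulatory T cells (Treg cells), CD4+Foxp3+ lymphocytes that restrain immune responses, sorted by FACS and taken from female mice on the C57BL/6 background, labelled healthy. The WT group (genotype label WT Tg, whose wording is not explained in the sources used here) and the miR-27 Tg group (genotype label miR-27 Tg) had 3 libraries each, and the labels name no treatment. The series title names the animals Foxp3cre het and miR-27Tg, and the design text describes extra miR-27a made in Treg cells alone. Foxp3 lies on the X chromosome, and whether the sort of these females was limited to cells with an active Cre allele is not stated. Neither the age of the mice nor whether each library came from a separate mouse is given, so p-values measure the spread between libraries, which may be technical.

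Galectins bind galactose-containing sugars on cell surface proteins, and galectin-1 can restrain or kill activated T cells. Annexins bind membrane phospholipids when calcium rises, and S100 proteins are small calcium sensors, several of which pair with an annexin: S100a10 with annexin A2 and S100a11 with annexin A1. In T cells Lgals1, S100a4, S100a6 and Anxa2 are known to be higher in effector and memory cells than in naive cells.

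Levels are RPKM as the authors deposited them, that is, per kilobase of exon and per 10000000 counted reads. Summed over all transcripts, each library held 34400000 to 42100000 counted reads, a number recovered from the smallest values of the table. A read in exons shared by several transcripts may count more than once, so the number of separate reads may be lower. Mir27a, the hairpin of the transgene's microRNA, had 24.7 to 38.4 RPKM in WT against 7448 to 8919 in miR-27 Tg, and thus all 6 libraries fitted their labels. Markers of the sorted cells were present: Cd4 had 1946 ± 85.4 RPKM in WT against 2207 ± 87.98 in miR-27 Tg, and Cd3d, a chain of the T cell receptor complex, 2041 ± 230.1 and 1983 ± 279 (SD, n = 3).

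None of the 10 genes passed the test between the groups. The test was limma on log2(RPKM + 1) (p-values adjusted by Benjamini-Hochberg across the 13621 genes, threshold 0.05), and the adjusted p of the 10 genes was 0.135 to 0.973. Over all genes tested 0.374% passed as higher in miR-27 Tg and 0.653% as lower, so 0 of 10 is near that background. At an unadjusted p under 0.05, 1 of the 10 was higher (Anxa1) and 3 were lower (S100a4, S100a10 and S100a11), against 4.59% and 8.43% of all genes tested. The libraries of the groups did not overlap for 3 of the 10: Anxa1 was higher in every miR-27 Tg library, and S100a10 and S100a11 were lower in every one, against 6.84% and 11.6% of all genes tested. The median log2 difference of the 10 genes was -0.10, against -0.013 over all genes tested. With 1 library left out, the genes of the whole table that passed numbered 3 to 21 higher and 2 to 46 lower in place of 51 and 89, and in each of these 6 fits 0 of the 10 genes passed.

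**Figure D1:**
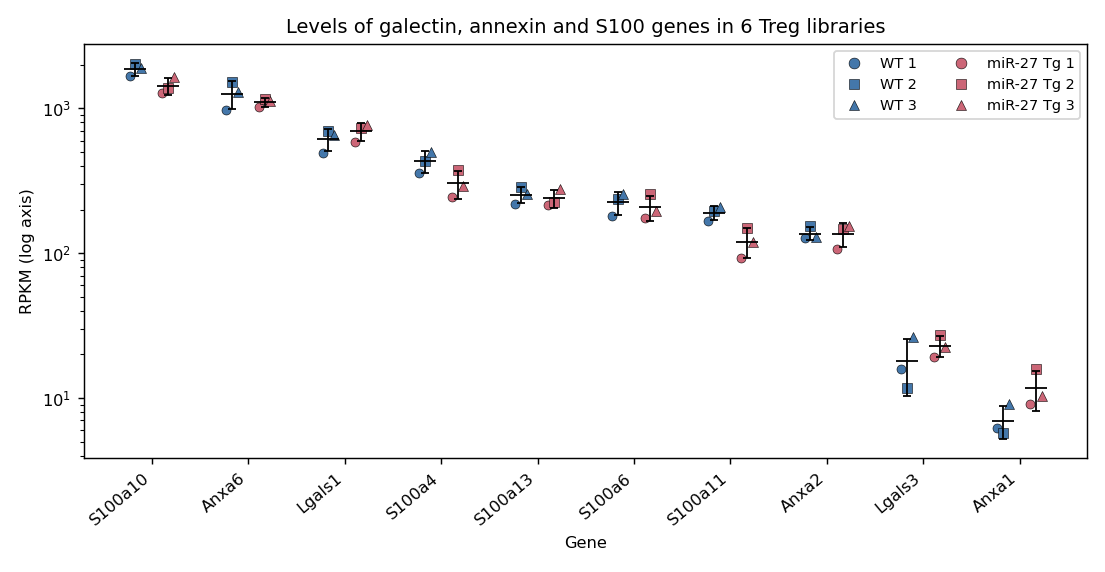
RPKM on a log axis of the 10 genes, ordered by their WT mean. Each point is 1 library (circle, square and triangle for replicates 1, 2 and 3), and bars are mean ± SD of 3 libraries. S100a10 is the highest in both groups and Anxa1 the lowest, and only S100a10, S100a11 and Anxa1 have groups that do not overlap.

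RPKM is per length, so levels can be compared between the genes. In WT the order of mean levels was S100a10 (1876 ± 189.9 RPKM), Anxa6 (1268 ± 279), Lgals1 (617 ± 107), S100a4 (433 ± 73.0), S100a13 (254 ± 33.1), S100a6 (225 ± 40.5), S100a11 (190 ± 20.6), Anxa2 (137 ± 14.1), Lgals3 (18.1 ± 7.64) and Anxa1 (6.98 ± 1.80). Neighbours whose WT libraries overlapped were Lgals1 with S100a4, S100a13 with S100a6 and S100a6 with S100a11. In miR-27 Tg the order was the same, except that Anxa2 (136 ± 25.0 RPKM) stood above S100a11 (120 ± 28.2), and those libraries overlapped, as did S100a4 with S100a13 and S100a13 with S100a6. Thus 8 of the 10 genes had a mean of over 100 RPKM in each group, while Lgals3 and Anxa1 rested on 63 to 137 and 31 to 75 reads per library.

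The first gene family was the galectins. Lgals1 encodes galectin-1 and was read from NM_008495 on mm10 chromosome 15, 78926725 to 78930465 on the plus strand. It had 496, 696 and 660 RPKM in WT replicates 1 to 3 against 585, 728 and 768 in the 3 of miR-27 Tg. The groups overlapped, and replicate 1 was the lowest library of each. The log2 difference, miR-27 Tg minus WT, was 0.18 (SE 0.16, 95% interval -0.18 to 0.53, adjusted p = 0.720 by limma).

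Lgals1 was also the only one of the 10 genes whose 3′ UTR holds a match to all 7 bases of the miR-27 seed, which is why its site is shown. The microRNA comes from RefSeq (GRCm38.p6), with bases 2 to 8, the seed, in capitals. For each gene the protein-coding transcript with the longest annotated 3′ UTR in GENCODE M21 (GRCm38) was searched. For Anxa1, Anxa6 and S100a6 this was not the transcript matched to the measured one. The site is bases 226 to 255 of the 321-base 3′ UTR of Lgals1 chosen in this way, with the bases that pair with the seed in capitals.
miR-27a-3p: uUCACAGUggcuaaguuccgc
Lgals1 site: gtgagccagtgtcccACTGTGAcagggaca
The letters ACTGTGA, searched on the sense strand, were found in 1 of the 10 genes, and in 16.7% of the 11817 tested genes with an annotated 3′ UTR. The 3′ UTRs of the 10 genes are short, 85 to 480 bases, and among the 2725 tested genes in that range 4.04% held a match. The shorter match CTGTGA, to bases 2 to 7 of the microRNA, was found in 3 of the 10 genes (Lgals1 at the same site, Anxa2 with 2 and S100a4 with 1), in 47.4% of the 11817 genes and in 14.8% of the 2725. A match of letters does not show that the site is used.

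Lgals3 encodes galectin-3, a galectin of macrophages and of activated lymphocytes (NM_010705, chromosome 14, 47373860 to 47386167, plus strand). It had 15.95, 11.7 and 26.5 RPKM in WT against 19.3, 27.1 and 22.5 in miR-27 Tg. The highest WT library, replicate 3, lay close to the highest miR-27 Tg library, replicate 2, and the groups overlapped. The log2 difference was 0.39 (SE 0.28, 95% interval -0.25 to 1.04, adjusted p = 0.632 by limma). Leaving out WT replicate 2 gave 0.14, and leaving out WT replicate 3 gave 0.70.

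Of 11 other galectin genes and galectin-like genes, 10 were matched by symbol and 8 were tested, and 0 passed in either direction (median log2 difference -0.0032). At an unadjusted p under 0.05, 1 was higher and 1 lower, against 4.59% and 8.43% of all genes tested. Lgals9, a tandem-repeat galectin that binds the receptor Tim-3, had 738 ± 132 RPKM in WT against 812 ± 71.1 in miR-27 Tg (log2 difference 0.15, adjusted p = 0.739 by limma), a level like that of Lgals1. Lgals3bp, a secreted protein bound by galectin-3, had 320 ± 57.8 and 423 ± 88.3 RPKM (0.40, adjusted p = 0.396), and Lgals8 239 ± 18.7 and 230.1 ± 10.4 (-0.055, 0.871). Named after their values were seen, Lgals7 and Lgalsl were the tested genes of this list whose groups did not overlap. Lgals7 had 4.43, 1.72 and 3.14 RPKM in WT against 10.2, 8.35 and 22.6 in miR-27 Tg (limma's adjusted p = 0.0920), and Lgalsl had 14.3, 21.2 and 14.2 and 7.24, 10.6 and 9.13 (adjusted p = 0.156). Lgals4 and Lgals6 are close copies, so their values are uncertain.

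Surface proteins that galectins bind and enzymes that build their sugar ligands made up a list of 20 genes, all tested. Of these 0 passed. At an unadjusted p under 0.05, 3 were lower and 0 higher, against 8.43% and 4.59% of all genes tested. The groups did not overlap for 4 of the 20, all lower, against 11.6% of all genes tested. Of the 20, 17 had a difference below 0, as did 7208 of the 13621 genes tested. The median was -0.083, against -0.013 over all genes tested. Ptprc, the phosphatase CD45 and a galectin-1 ligand, had 3385 ± 379 and 3195 ± 184 RPKM (log2 difference -0.079, adjusted p = 0.856 by limma). Spn, the sialomucin CD43, had 934 ± 47.2 and 899 ± 3.31 RPKM (-0.054, 0.858), and Cd6, an adhesion receptor, 1305 ± 32.4 and 1299 ± 113 (-0.010, 0.984). Named after its values were seen, Gcnt1, the enzyme that branches core O-glycans, had 19.7, 19.9 and 23.4 RPKM in WT against 8.12, 13.4 and 8.85 in miR-27 Tg. Its groups did not overlap, and its log2 difference of -1.01 had adjusted p = 0.0759.

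The annexins differed among themselves. Anxa6, an annexin with a doubled core that binds membranes and F-actin, had the highest level of the family (NM_001110211, chromosome 11, 54978962 to 55033471, minus strand). It had 975, 1530 and 1299 RPKM in WT against 1021, 1164 and 1133 in miR-27 Tg. WT replicate 1 lay below every miR-27 Tg library, and the other WT libraries lay above them. The log2 difference was -0.17 (SE 0.16, 95% interval -0.54 to 0.19, adjusted p = 0.730 by limma), and -0.35 without WT replicate 1 and -0.027 without WT replicate 2.

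Anxa2, the phospholipid-binding partner of S100a10 (NM_007585, chromosome 9, 69453683 to 69491785, plus strand), had 128, 153 and 129 RPKM in WT against 107, 147 and 153 in miR-27 Tg. The WT libraries lay within the range of the miR-27 Tg libraries. The log2 difference of -0.023 (SE 0.15, 95% interval -0.37 to 0.33, adjusted p = 0.973 by limma) changed sign with the scaling, to 0.012 when each library was centred on its median.

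Anxa1, which encodes a protein that dampens inflammation through formyl peptide receptors, was the lowest of the 10 genes (NM_010730, chromosome 19, 20373434 to 20390671, minus strand). It had 6.20, 5.71 and 9.04 RPKM in WT against 9.13, 15.8 and 10.3 in miR-27 Tg, from 36, 31 and 47 reads and 48, 75 and 49 reads. Every miR-27 Tg library lay above every WT library, but the highest WT library and the lowest miR-27 Tg library were 9.04 and 9.13 RPKM. The log2 difference was 0.66 (SE 0.25, 95% interval 0.078 to 1.25, adjusted p = 0.311 by limma), and 0.45 without miR-27 Tg replicate 2. The interval of a single gene is not adjusted for the number of genes tested.

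Of 9 other annexins 6 were tested and 0 passed in either direction (median -0.060). At an unadjusted p under 0.05, 0 were higher and 0 lower, against 4.59% and 8.43% of all genes tested. Anxa5, the annexin used to stain dying cells, had 269.5 ± 8.27 and 244 ± 40.8 RPKM (log2 difference -0.16, adjusted p = 0.682 by limma). Anxa7 had 133 ± 4.09 and 129 ± 14.6 RPKM (-0.049, 0.913), and Anxa11 109.7 ± 17.5 and 108 ± 14.6 (-0.015, 0.984). The formyl peptide receptor genes Fpr1, Fpr2 and Fpr3 each had a mean of under 1 RPKM and were not tested.

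**Figure D2:**
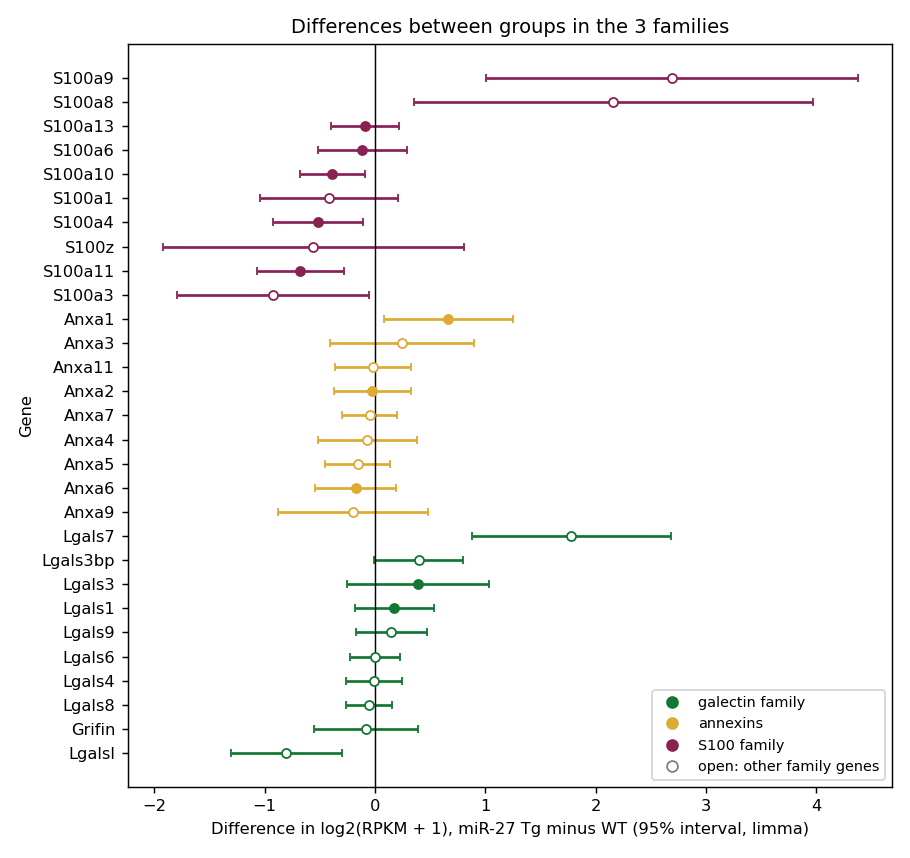
Difference in log2(RPKM + 1), miR-27 Tg minus WT, for every tested gene of the galectin, annexin and S100 lists, with 95% intervals from limma that are not adjusted for the number of genes. Filled points are the 10 genes described and open points the other family genes. Most annexin points lie near 0, S100a11 and S100a4 lie at -0.68 and -0.52, and S100a9 and S100a8 lie at 2.69 and 2.16 with wide intervals.

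The S100 genes held the most negative differences of the 10. S100a11 encodes a calcium sensor that binds annexin A1 (NM_016740, chromosome 3, 93520496 to 93526288, plus strand). It had 168, 196 and 208 RPKM in WT against 93.1, 150 and 119 in miR-27 Tg. Every miR-27 Tg library lay below every WT library. The ratio of the group means was 0.633 and the log2 difference -0.68 (SE 0.17, 95% interval -1.07 to -0.28, adjusted p = 0.135 by limma). It was -0.51 without miR-27 Tg replicate 1.

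S100a10 encodes p11, the partner that links annexin A2 into a tetramer at the membrane and also binds Ahnak (NM_009112, chromosome 3, 93555117 to 93564645, plus strand). It had 1669, 2042 and 1916 RPKM in WT against 1272, 1392 and 1649 in miR-27 Tg, the highest level of the 10 genes. The groups did not overlap, with 1669 RPKM in the lowest WT library and 1649 in the highest miR-27 Tg library. The ratio of means was 0.766 and the log2 difference -0.39 (SE 0.13, 95% interval -0.68 to -0.094, adjusted p = 0.238 by limma).

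S100a4 encodes a protein that binds non-muscle myosin and marks motile and memory cells (NM_011311, chromosome 3, 90603770 to 90606045, plus strand). It had 358, 437 and 504 RPKM in WT against 244, 376 and 293 in miR-27 Tg. The groups overlapped only through WT replicate 1 and miR-27 Tg replicate 2. The log2 difference was -0.52 (SE 0.18, 95% interval -0.93 to -0.10, adjusted p = 0.263 by limma). The predicted gene Gm42674, on the same strand, shares 60.6% of the exonic bases of S100a4 in GENCODE M21, so reads of the 2 genes were not told apart. The other 9 genes share 0 exonic bases with another annotated gene.

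The remaining S100 genes had differences near 0. S100a6, calcyclin, which lies 6.85 kb downstream of S100a4 (NM_011313, 90612894 to 90614414, plus strand), had 179.8, 239 and 258 RPKM in WT against 175, 255 and 195 in miR-27 Tg (log2 difference -0.12, SE 0.18, 95% interval -0.52 to 0.29, adjusted p = 0.860 by limma). The groups overlapped over nearly their whole range. S100a13, which takes part in the release of proteins that lack a signal peptide (NM_009113, 90514435 to 90524581, plus strand), had 219, 285 and 257 RPKM in WT against 214, 224 and 278 in miR-27 Tg (-0.088, SE 0.13, 95% interval -0.40 to 0.22, adjusted p = 0.860). Its groups overlapped as well.

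All 5 S100 genes lie on chromosome 3, in 2 places. S100a13, S100a4 and S100a6 lie among other S100 genes, and S100a11 and S100a10 lie 2906 kb further on, 28.8 kb apart. Of S100a4 and S100a6, with S100a5 between them, S100a4 alone had an interval below 0, while both S100a11 and S100a10 had one. S100a3, which lies 1067 bases before S100a4, also had an interval below 0. Its log2 difference was -0.92 (interval -1.80 to -0.053, adjusted p = 0.348 by limma). S100a3 rested on 2 to 18 reads per library, and its groups overlapped. Of 11 other S100 genes 5 were tested and 0 passed in either direction (median -0.42). At an unadjusted p under 0.05, 2 were higher and 1 lower, against 4.59% and 8.43% of all genes tested. S100a1, a calcium sensor of muscle, had 8.31 ± 2.78 and 5.88 ± 1.36 RPKM (log2 difference -0.42, adjusted p = 0.606 by limma). S100a14, S100a16, S100a5, S100a7a, S100b and S100g each had a mean of under 1 RPKM. S100a2, which is not in that list nor in the plot of family differences, was tested on 0 to 4 reads per library (log2 difference -0.99, adjusted p = 0.553 by limma).

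Promoters are shown for S100a4 and S100a11, which had the most negative differences of the 10 genes, although neither passed the test. The sequences are from RefSeq (GRCm38.p6, plus strand, 250 bases before to 50 after the start), from chr3:90603520-90603819 for S100a4 and chr3:93520246-93520545 for S100a11. Capitals mark matches to 4 motifs searched on both strands: the TATA box TATAAA, the GC box GGGCGG, the AP-1 motif TGANTCA and the Runx motif TGTGGT. None of the matches shown overlap each other.
S100a4 promoter: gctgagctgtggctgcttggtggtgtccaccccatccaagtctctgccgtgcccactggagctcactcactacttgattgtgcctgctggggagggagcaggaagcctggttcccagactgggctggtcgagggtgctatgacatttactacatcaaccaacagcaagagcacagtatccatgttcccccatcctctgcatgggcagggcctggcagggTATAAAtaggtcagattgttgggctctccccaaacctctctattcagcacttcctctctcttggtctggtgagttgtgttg
S100a11 promoter: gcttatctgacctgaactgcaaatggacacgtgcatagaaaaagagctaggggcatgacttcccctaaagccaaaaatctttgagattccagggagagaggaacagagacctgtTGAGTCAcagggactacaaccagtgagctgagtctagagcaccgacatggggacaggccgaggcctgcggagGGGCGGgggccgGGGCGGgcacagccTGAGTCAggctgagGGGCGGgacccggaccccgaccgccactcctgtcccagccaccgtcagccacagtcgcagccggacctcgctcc
The S100a4 window held a TATA box at -31 from the start and none of the other motifs. The S100a11 window held 3 GC boxes, at -64, -52 and -24, and AP-1 matches at -136 and -38, and no TATA box. Promoters were found in the table for 7 of the 10 genes. Among these, TATA boxes were in 3 (Anxa1, Anxa2 and S100a4), GC boxes in 3 (Anxa2, Lgals3 and S100a11), AP-1 matches in 2 (Anxa2 and S100a11) and Runx matches in 1 (S100a6). Of 32851 promoters of the same length 13.6% held a TATA box, 35.7% a GC box, 7.81% an AP-1 match and 16.8% a Runx match. The 2 promoters shown share none of the 4 motifs. A match is a description of letters and shows no binding.

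S100 proteins act beside their annexins, so the ratio of their levels was taken within each library, a measure chosen after the values were seen. S100a10 to Anxa2 was 13.03, 13.3 and 14.8 in WT against 11.9, 9.50 and 10.7 in miR-27 Tg. The ratio was lower in every miR-27 Tg library than in every WT library, with a log2 difference of -0.36. S100a11 to Anxa1 was 27.04, 34.3 and 23.01 in WT against 10.2, 9.48 and 11.5 in miR-27 Tg. That log2 difference was -1.42. The separation of the groups in this second ratio follows from the levels given above, since S100a11 was lower and Anxa1 higher in every miR-27 Tg library, and Anxa1 entered with few reads. No test is given for either ratio.

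**Figure D3:**
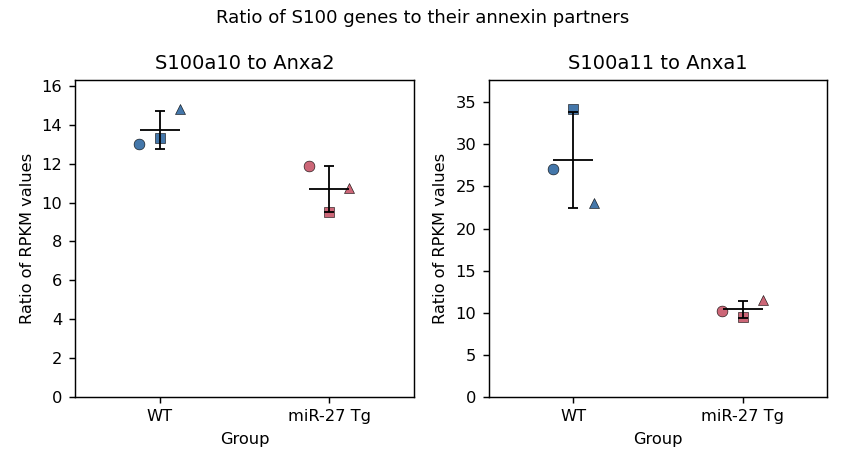
Ratio of RPKM values of S100a10 to Anxa2 (left) and of S100a11 to Anxa1 (right) in each library, on axes from 0. Points are libraries, marked by replicate as circle, square and triangle, and bars are mean ± SD of 3 libraries: 13.7 ± 0.968 and 10.7 ± 1.19 on the left, 28.1 ± 5.70 and 10.4 ± 1.03 on the right. The groups do not overlap in either panel.

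Of 24 other partners and receptors of annexins and S100 proteins 19 were tested and 0 passed in either direction (median 0.0014). At an unadjusted p under 0.05, 1 was higher and 2 were lower, against 4.59% and 8.43% of all genes tested. Tmsb4x, which binds actin monomers, had 29613 ± 3350 and 28832 ± 3855 RPKM (log2 difference -0.041, adjusted p = 0.959 by limma). Myh9, the non-muscle myosin that S100a4 binds, had 1833 ± 357 and 1836 ± 356 RPKM (0.0046, 0.996). Tmsb10, a second thymosin, had 1063 ± 130.4 and 784 ± 21.7 RPKM (-0.43, 0.126), with groups that did not overlap. Named after its values were seen, Ahnak, the giant scaffold that the S100a10 and annexin A2 complex binds, had 266, 284 and 285 RPKM in WT against 201, 213 and 211 in miR-27 Tg. Its groups did not overlap either, and its log2 difference was -0.42 (SE 0.080, adjusted p = 0.0602).

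A list of 26 genes linked to effector or memory T cells held 2 that fell, 0 that rose and 24 that did not pass. Of all genes tested 0.653% passed as lower. The list was chosen with earlier results of these data known, so its counts are a description only. It shares Capg with the Treg identity list, Ahnak with the partner list, and Cd44 and Itgb1 with the list of galectin ligands. At an unadjusted p under 0.05, 13 of the 26 were lower and 1 was higher, and 13 were lower in every miR-27 Tg library than in every WT library, against 8.43%, 4.59% and 11.6% of all genes tested. The list's median was -0.39, against -0.10 for the 10 genes and -0.013 over all genes tested. Itgae, the integrin chain CD103, fell from 331 ± 60.7 to 78.8 ± 11.1 RPKM (log2 difference -2.05, adjusted p = 0.00534 by limma). Gzmb, the protease granzyme B, fell from 145 ± 60.3 to 34.3 ± 12.1 RPKM (-2.02, adjusted p = 0.0395), a call that was lost under 7 of 16 alternatives, among them each fit with 1 library left out except that without WT replicate 2, with adjusted p of up to 0.115. The 3 of these genes with the highest levels did not pass. Itgb7, an integrin chain that pairs with Itgae, had 1899 ± 156 and 2037 ± 44.6 RPKM (0.10, 0.733), Vim, the intermediate filament vimentin, 1723 ± 211 and 1865 ± 129 (0.12, 0.752) and Crip1, a small LIM protein, 1267 ± 224 and 1202 ± 131 (-0.066, 0.917). Of the Treg identity list 0 of 12 passed. At an unadjusted p under 0.05, 4 were lower and 0 higher, against 8.43% and 4.59% of all genes tested. Ctla4, an inhibitory receptor of Treg cells, had 3436 ± 324 and 2335 ± 234 RPKM (-0.56, 0.0868). The others of the 4 were Ikzf2 (-0.51, 0.290), Capg (-0.36, 0.267) and Nrp1 (-0.28, 0.331).

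The 10 genes shared a pattern among libraries that the groups do not explain. In miR-27 Tg, replicate 1 was the lowest library for all 10 genes. In WT, replicate 1 was the lowest for 8 of the 10, and replicate 2 for Lgals3 and Anxa1. The median deviation of the 10 genes from the mean of the 6 libraries was -0.20, 0.20 and 0.19 on the log2 scale in WT replicates 1 to 3 against -0.25, 0.093 and 0.095 in miR-27 Tg replicates 1 to 3.

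Transcript length moved with this. The 10 transcripts are 494 to 2616 bases long, and 6 of them are under 1000 bases. Among the 904 tested genes of 400 to 1000 bases with a mean of at least 10 RPKM, the median deviation was -0.16, 0.13 and 0.066 in WT against -0.16, -0.0025 and 0.14 in miR-27 Tg, so replicate 1 was low for short transcripts in each group. Among 4422 genes of 3000 bases or longer it was 0.034, 0.024 and -0.0058 and -0.0052, 0.0016 and -0.034. Between the groups the short genes had a median log2 difference of -0.014, near that of all genes tested. The part of transcript length in the levels of the 10 genes was not tested. Of 10694 other tested genes with a mean of at least 10 RPKM, the 5 whose level was most like the mean log2 level of the 10 genes were Lenep, Gm6904, Nrbf2, Klc2 and Mcoln1, with Pearson r of 0.976 to 0.986 over 6 libraries that share the pattern of replicate 1. All 5 had groups that overlapped, and 0 of them passed. The choice largely fixed this outcome, since the mean log2 level of the 10 genes itself overlapped between the groups.

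**Figure D4:**
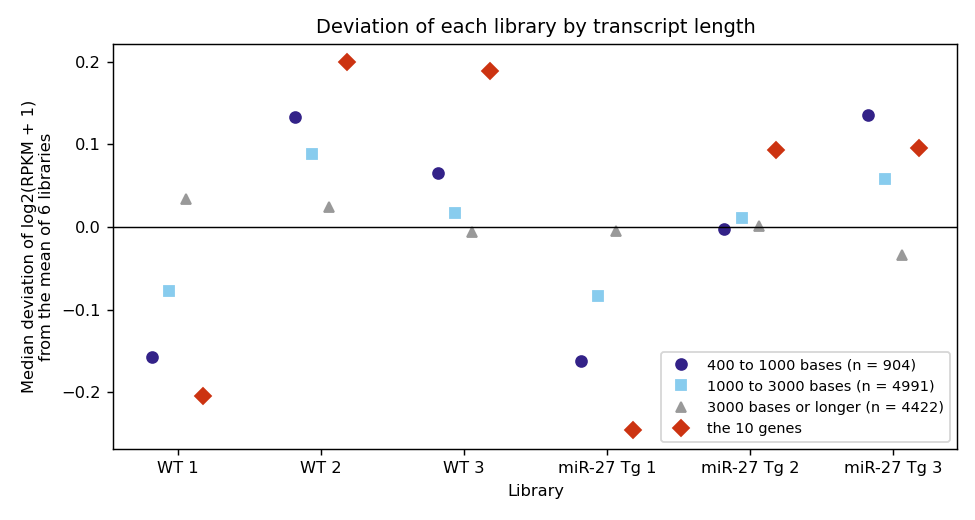
Median deviation of log2(RPKM + 1) from the mean of the 6 libraries, by library, for the 10 genes (diamonds) and for tested genes of 3 length ranges with a mean of at least 10 RPKM. Replicate 1 of each group lies below 0 for the 10 genes (-0.20 and -0.25) and for transcripts of 400 to 1000 bases (-0.16 and -0.16), while transcripts of 3000 bases or longer lie between -0.034 and 0.034.

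Myeloid cells, which the sort is meant to leave out, also express Lgals3, Anxa1, S100a4, S100a6, S100a10 and S100a11. Of 17 myeloid markers tested Itgam, the integrin chain CD11b, rose from 4.41 ± 0.487 to 16.4 ± 0.583 RPKM (log2 difference 1.69, adjusted p = 0.0118 by limma, lost without WT replicate 1, WT replicate 3 or miR-27 Tg replicate 3, with adjusted p up to 0.0674). The other 16 did not pass. At an unadjusted p under 0.05, 9 of the 17 were higher and 0 lower, against 4.59% and 8.43% of all genes tested. The groups did not overlap for 5, all higher, against 6.84% of all genes tested. Of the 17, 13 had a difference above 0, as did 6413 of the 13621 genes tested. The median was 0.98, against -0.013 over all genes tested. Cd14 was under 1 RPKM on average. The 18 markers summed to 2000, 2471 and 2698 RPKM in WT against 1901, 3538 and 3133 in miR-27 Tg, mostly from Ctss (1481 ± 193 and 1365 ± 230 RPKM), a protease of antigen-presenting cells, and Cst3 (373 ± 66.6 and 369 ± 78.0). Neither Ctss nor Cst3 had a higher mean in miR-27 Tg, while other markers in the sum did. Lyz2, lysozyme, had 131, 91.9 and 277 RPKM in WT against 196, 501 and 405 in miR-27 Tg. Named after their values were seen, Mpeg1 had 24.7, 66.7 and 134 RPKM against 44.6, 388 and 185, and Tyrobp 32.3, 86.4 and 167 against 51.7, 415 and 250. Their groups overlapped (adjusted p = 0.600 and 0.624 by limma). The libraries with the highest Lyz2 in each group, WT replicate 3 and miR-27 Tg replicate 2, were also those with the highest level of 5 of the 10 genes. Of these 5, Anxa1 and Lgals3 had a difference between the groups above 0, and S100a4, S100a6 and S100a11 had one below 0.

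S100a8 and S100a9, which together form calprotectin of neutrophils, lie in the same stretch of chromosome 3 as S100a6, and their values were spread more widely. S100a9 had 42.6, 5.88 and 6.14 RPKM in WT against 57.2, 170 and 57.1 in miR-27 Tg (log2 difference 2.69, SE 0.73, adjusted p = 0.156 by limma). S100a8 had 40.5, 4.60 and 6.17 RPKM in WT against 46.1, 115 and 26.3 in miR-27 Tg (2.16, SE 0.78, adjusted p = 0.287). Ngp, a protein of neutrophil granules, followed them with 76, 1 and 1 reads in WT against 105, 216 and 51 in miR-27 Tg. The 12 neutrophil markers, which include S100a8 and S100a9, summed to 142, 22.5 and 42.3 RPKM in WT against 167, 400.01 and 119 in miR-27 Tg, and 0 of 9 tested passed. At an unadjusted p under 0.05, 5 of the 9 were higher and 1 lower, against 4.59% and 8.43% of all genes tested. Of the 9, 8 had a difference above 0, as did 6413 of the 13621 genes tested. The median was 2.16, against -0.013 over all genes tested. Named after its values were seen, Ltf, lactoferrin of neutrophil granules, had 2.01, 0.28 and 0 RPKM in WT libraries and 6.17, 18.7 and 5.33 in those of miR-27 Tg, with no overlap (log2 difference 2.62, adjusted p = 0.0781 by limma). Mmp9, also named after its values were seen, went the other way, again with no overlap. It had 15.4, 9.58 and 26.5 RPKM in WT against 4.24, 9.56 and 4.60 in miR-27 Tg (log2 difference -1.32, adjusted p = 0.200 by limma). The groups did not overlap for 2 of the 9 as higher and for 1 as lower, against 6.84% and 11.6% of all genes tested. Ly6g, a defining marker, was listed at 0 in 4 of the 6 libraries. The part of myeloid or neutrophil RNA in the levels of the 10 genes was not tested. In bulk samples a change in the share of cells and a change in RNA per cell cannot be told apart.

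**Figure D5:**
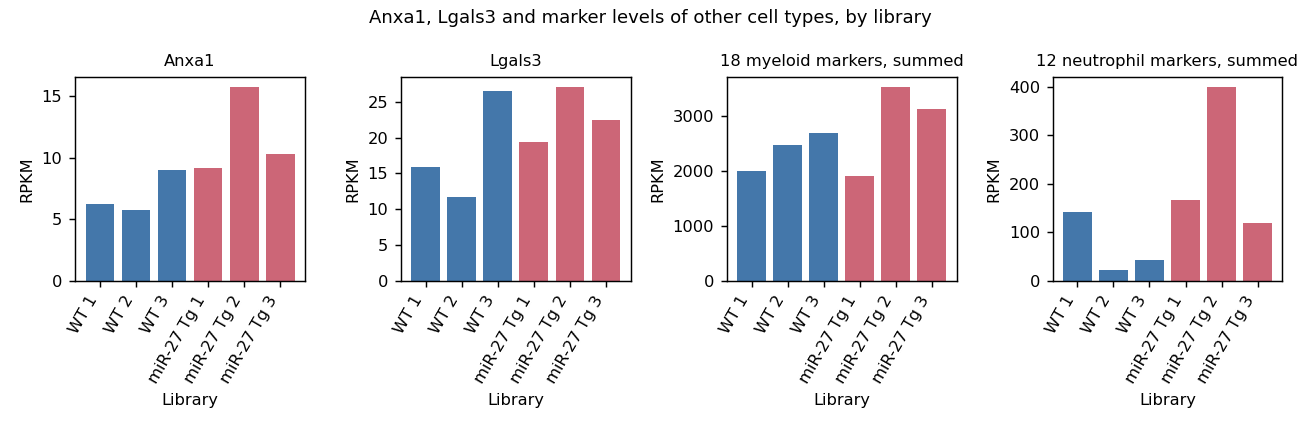
RPKM by library of Anxa1, Lgals3, the sum of 18 myeloid markers and the sum of 12 neutrophil markers, with WT in blue and miR-27 Tg in red and each axis from 0. Anxa1 and Lgals3 are highest in WT replicate 3 and miR-27 Tg replicate 2 of their groups, as are the myeloid sum and S100a4, S100a6 and S100a11 (not drawn), and the neutrophil sum is highest in miR-27 Tg replicate 2 (400.01 RPKM).

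Of 11 CD8 T and NK cell markers tested, 2 were higher and 3 lower at an unadjusted p under 0.05, against 4.59% and 8.43% of all genes tested. Among them Nkg7, a granule protein, fell from 102 ± 11.6 to 53.0 ± 5.52 RPKM (adjusted p = 0.0257 by limma) and Xcl1, a chemokine, from 23.1 ± 2.02 to 8.15 ± 1.59 (0.0238). With 1 library left out, the call of Nkg7 was kept only without miR-27 Tg replicate 2 (adjusted p up to 0.0988), and that of Xcl1 was lost without WT replicate 1, WT replicate 3 or miR-27 Tg replicate 3 (up to 0.0818) and with no filter on low values (0.0558). Cd8b1 had 81.3 ± 18.2 and 136 ± 39.3 RPKM (0.258) and Prf1, perforin, 18.5 ± 3.83 and 20.8 ± 4.16 (0.817). Of 4 stromal markers tested 1 was higher and 2 were lower at an unadjusted p under 0.05, against 4.59% and 8.43% of all genes tested. The 2 lower were Epcam and Krt18, and Krt18 rested on 3 to 18 reads per library. Epcam, an adhesion molecule, fell from 17.5 ± 1.25 to 5.46 ± 0.471 RPKM (adjusted p = 0.0134, lost without the same 3 libraries as Xcl1, up to 0.0692), while Dcn, Lum and Pdgfra were listed at 0 in every library and Pecam1, also expressed by leukocytes, had 480 ± 65.6 and 627 ± 44.1 RPKM (0.191). Of 10 B cell markers tested 0 passed. At an unadjusted p under 0.05, 1 was higher and 0 lower, against 4.59% and 8.43% of all genes tested (Cd79b 99.1 ± 15.2 and 78.9 ± 13.6 RPKM, Cd22 19.3 ± 3.22 and 14.1 ± 6.37, Cd79a 14.4 ± 1.52 and 17.45 ± 4.57). Of 7 erythroid markers 0 passed and 0 had an unadjusted p under 0.05 (Hbb-b1 13.2 ± 14.3 and 9.48 ± 7.18 RPKM, a near copy of Hbb-bs and so uncertain). Their part in the levels of the 10 genes was not tested.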

How the data were processed

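The deposited table holds RPKM values of 34711 RefSeq transcripts in 6 libraries. Per the file headers, the authors made them with HOMER on mm10, counting reads in exons on both strands, with library totals set to 10000000. Per the submitters' processing notes, STAR 2.2.0c, HOMER, mm10 and GRCm38 were used. Because strands were pooled, overlapping genes on opposite strands are not told apart, and how multi-mapping reads were treated is not stated.

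One transcript per symbol was kept (highest mean RPKM), and genes with a mean of at least 1 RPKM were tested as log2(RPKM + 1) with limma 3.58.1 (R 4.3.3), with an intensity trend, two-sided, Benjamini-Hochberg adjustment over all 13621 genes and no replicate block. This scale understates the change of low genes. Among 3006 to 3215 low values per library, 100% were whole multiples of 1 read within 0.1 of a read, which gave the depths. The script was tested on simulated data. The genes and lists were chosen with earlier results of these data known. Genes named are the 10 genes, and from each list those past the threshold and the 3 with the highest mean RPKM. For genes of like pattern, the 5 with the highest Pearson r were taken. Alternatives were the pseudocount, the filter, the trend, array weights, scaling, transcript means, a replicate block and each library left out.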

Additional observations from a re-analysis of the deposited data

How the results depend on the processing

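The 10 genes were refitted under 16 alternatives, which gave 160 values. Of these, 153 kept their sign and their side of the threshold, 1 passed the threshold and 6 changed sign. The 6 were Anxa2 with array weights (0.063), with each library centred on its median (0.012), without replicate 2 of WT (0.060) and without replicate 1 of miR-27 Tg (0.14), S100a6 without miR-27 Tg replicate 1 (0.0013) and S100a13 without WT replicate 2 (4.51e-05), all on the log2 scale. With 1 library left out the differences ranged from -0.12 to 0.14 for Anxa2, from -0.27 to 0.0013 for S100a6 and from -0.20 to 4.51e-05 for S100a13. The cause was not tested.

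With a replicate block, S100a11 passed as lower (log2 difference -0.68, adjusted p = 0.0414 by limma), so 1 of the 10 genes was lower in place of 0, and 91 genes of the whole table were higher and 185 lower in place of 51 and 89. Over the other 15 alternatives the adjusted p of S100a11 stayed above 0.05. The labels do not say that equal numbers mark a shared litter or day. Deviations from the group means correlated at 0.37, 0.097 and 0.037 across genes for the pairs numbered 1, 2 and 3. WT replicate 2 correlated best with miR-27 Tg replicate 3 (0.15). Deviations within a group sum to 0, so these values depend on each other and cannot decide whether the numbers mark a pairing. The main fit had no replicate block. The block changed no other call among the 10 genes.

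Over the whole table, 15 genes were higher and 33 lower with no filter on low values, and 81 and 144 with array weights. With 1 library left out, 3 to 21 genes were higher and 2 to 46 lower, and 0 of the 10 genes passed in each direction. The scalings moved the median difference of all genes from -0.013 to at most 0.023. The log2 ratio of S100a10 to Anxa2 differed by -0.44 to -0.28 and that of S100a11 to Anxa1 by -1.55 to -1.27 with 1 library left out, fits added after seeing the data. Precision is limited by the 3 libraries per group, and for Anxa1 and Lgals3 also by few reads.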
